A study of Homo sapiens with 9 samples.

Results

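The kinesin motor genes are described here, as measured in NT2 cells differentiating in the presence of 2 organophosphorus compounds. Members were the probes that were not control spots and whose gene name in the array files is KIF or KIFC followed by a number and, where present, a letter. The rule gave 41 genes of 34623 gene names and 60 of the 42405 probes of the array. The NT2 line (hNT2 in the labels) is a human embryonal carcinoma line that turns toward neuron-like cells in retinoic acid. RNA was taken after 4 days (96 h) from control cultures, from cultures with 1 μM paraoxon and from cultures with 5 μM mipafox. Control, paraoxon and mipafox cultures alike were in differentiation medium with 10 μM retinoic acid, and 3 one-colour arrays, lettered A, B and C, were hybridized for each treatment. Paraoxon is the active metabolite of the insecticide parathion, and mipafox is a neuropathic organophosphate that inhibits neuropathy target esterase. The question of the study was which transcripts either compound alters early in neural differentiation.

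Kinesins are motor proteins that use ATP to move along microtubules or to take microtubules apart. One set works in the mitotic spindle and at the site of cell division, and its transcripts are most abundant in dividing cells. Another set carries vesicles, mitochondria and other cargo along neurites, and the heavy chains of kinesin-1 and the KIF1 and KIF3 motors are known for transport from the neuronal cell body toward the axon end.

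Signals are given throughout as log2 of the processed intensity minus the 75th percentile of the array, so that a value above 0 lies above that percentile. The percentile was between 802 and 1590 intensity units on the 9 arrays, and 65.7% to 73.6% of probes gave a signal well above background. The array headers name 2 slides. The controls and mipafox A were on slide 1, and all paraoxon arrays were on slide 2 with mipafox B and C, so paraoxon and control shared no slide and mipafox alone links the slides. The labels call the replicates biological and the paper calls them technical, so the p-values measure only the spread between these samples. All 9 pluripotency markers on the array and 8 of 9 genes of the retinoic acid response were well above background on all 9 arrays, as were 6 of 7 neural progenitor markers and 6 of 8 neuron markers. Of the neuron markers, STMN2 was well above background on 2 arrays and SYP on 6. The astrocyte marker GFAP and the mesoderm marker T were above background on 0 arrays, whereas 3 of 6 endoderm, 4 of 6 mesoderm and muscle and 4 of 5 fibroblast markers were detected on all 9.

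The promoter sequences of the mitotic and axonal kinesins are shown first, since both sets are compared throughout. Promoters of genes used in mitosis often carry a CCAAT box and, close to the start site, a short element of the type TTTGAA or TTTAAA, through which transcription is held down outside the dividing phases. In RefSeq (GRCh38.p14), 33 of the 41 kinesin genes had a promoter entry, which covers 250 bases before the start site and 50 from it on. The letters TTTGAA or TTTAAA, and those of CCAAT, were searched on both strands (TTTAAA reads the same on either). TTTGAA or TTTAAA was present in 5 of 5 promoters of the mitotic kinesins KIF11, KIF20A, KIF23, KIF2C and KIF4A, and in 0 of 4 promoters of the axonal transport kinesins KIF1A, KIF1B, KIF3A and KIF5C. It was present in 6 of 10 promoters of other cell division kinesins and 2 of 10 of other transport kinesins. Of the kinesins listed under cilium and flagellum (KIF6, KIF7, KIF9 and KIF25) it was present in 0 of 4, and of all 35116 RefSeq promoters in 24.0%. CCAAT was present in 4 of the 5 mitotic promoters, 1 of the 4 axonal ones and 34.6% of all promoters. A match is a description of letters in this window and no evidence that a factor binds there. The 160 bases before the start site are given for 4 mitotic kinesins and, for contrast, for the axonal motors KIF1A and KIF5C, each 5′ to 3′ on the strand of the gene with matches in capitals on whichever strand (ATTGG is CCAAT and TTCAAA is TTTGAA on the other strand).
KIF11, chr10:92592970-92593129, plus strand: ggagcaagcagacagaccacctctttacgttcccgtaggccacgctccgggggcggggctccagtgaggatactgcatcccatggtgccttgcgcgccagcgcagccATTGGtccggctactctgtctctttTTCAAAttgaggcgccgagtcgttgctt
KIF20A, chr5:138178952-138179111, plus strand: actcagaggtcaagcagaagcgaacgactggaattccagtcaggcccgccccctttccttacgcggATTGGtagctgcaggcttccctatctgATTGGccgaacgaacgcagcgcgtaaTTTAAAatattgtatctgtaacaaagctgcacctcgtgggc
KIF23, chr15:69414189-69414348, plus strand: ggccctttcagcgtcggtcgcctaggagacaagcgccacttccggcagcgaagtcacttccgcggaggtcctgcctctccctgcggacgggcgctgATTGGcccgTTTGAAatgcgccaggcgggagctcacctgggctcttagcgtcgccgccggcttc
KIF4A, chrX:70289944-70290103, plus strand: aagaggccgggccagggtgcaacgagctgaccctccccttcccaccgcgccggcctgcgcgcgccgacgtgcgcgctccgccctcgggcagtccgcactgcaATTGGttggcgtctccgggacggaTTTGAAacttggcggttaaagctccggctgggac
KIF1A, chr2:240821404-240821563, minus strand: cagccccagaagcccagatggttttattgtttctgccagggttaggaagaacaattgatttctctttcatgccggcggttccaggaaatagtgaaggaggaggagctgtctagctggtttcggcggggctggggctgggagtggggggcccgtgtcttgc
KIF5C, chr2:148947715-148947874, plus strand: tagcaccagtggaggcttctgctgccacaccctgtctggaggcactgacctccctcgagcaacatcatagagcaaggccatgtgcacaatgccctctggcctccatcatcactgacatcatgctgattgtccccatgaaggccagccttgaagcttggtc

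In the window of KIF2C, a microtubule depolymerase of the centromere, the match to TTTAAA lay after the start site and no match lay in the bases before it.

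Kinesin transcripts were detected broadly in these cells. Of the 41 genes, 37 had a probe well above background on all 9 arrays. By probe, 50 of 60 were well above background on all 9 arrays, 4 were so on 0 arrays, and 0 were saturated. The filter for testing asked that a probe be well above background on all arrays of 1 treatment or more, and it kept 53 of the 60 probes and 38 of the 41 genes, and 29134 probes of the whole array. No probe was tested for KIF2B, a depolymerase related to KIF2C, or for KIF6 and KIF9, both linked to motile cilia. KIF2B was not well above background on any array, and the KIF6 and KIF9 probes were so on at most 1 array each.

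No kinesin probe was called in either comparison. One limma fit covered the 9 arrays, p-values were adjusted over the 29134 tested probes after Benjamini and Hochberg, and a probe was called at a log2 fold change beyond 1 with an adjusted p under 0.05. Among all tested probes 0.0% were called with paraoxon and 0.0% with mipafox. For paraoxon against control, log2 fold changes of the 53 kinesin probes lay between -0.92 and 0.40 with a median of 0.01, the same as the median of all tested probes, and the smallest adjusted p was 0.176. Of the 53, 5 (9.43%) were higher at an unadjusted p under 0.05, against 7.31% of all tested probes, and 4 (7.55%) were lower, against 6.02%. The 3 paraoxon arrays all lay above the 3 control arrays for 10 kinesin probes (18.9%), against 12.4% of all probes, and all below for 11 (20.8%), against 11.1%. For mipafox against control, log2 fold changes lay between -0.78 and 0.51 with a median of 0.04, and the smallest adjusted p was 0.451. Here 1 probe (1.89%) was higher at an unadjusted p under 0.05, against 2.96% of all, and 3 (5.66%) were lower, against 4.0%. The mipafox arrays lay wholly above the controls for 2 probes (3.77%, against 5.34% of all) and wholly below for 7 (13.2%, against 6.46% of all). The shares without overlap were thus above those of all probes in both directions with paraoxon and downward with mipafox, and several of these probes belong to the same gene, so the differences in share were not tested. Each count of lower probes, for both compounds, includes a KIF18B probe that passed the filter only through the control arrays. Both comparisons use the same 3 control arrays and the doses of the compounds differ, so their values are given side by side.

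**Figure D1:**
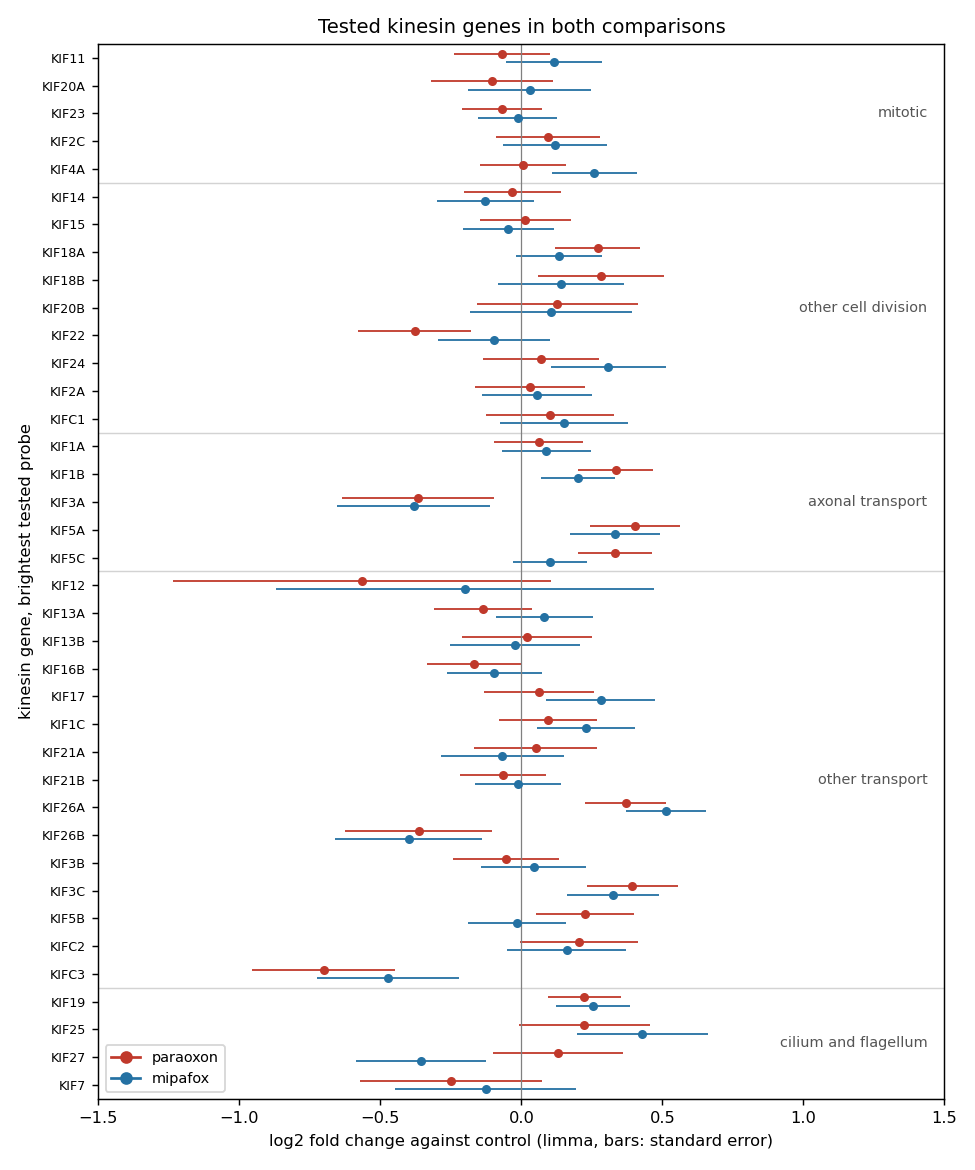
Log2 fold change against control (horizontal axis, limma, bars give the standard error) of the 38 tested kinesin genes at their brightest probe, grouped by role, with paraoxon in red and mipafox in blue. Most points lie within 0.5 of 0, KIFC3 is lowest with paraoxon at -0.70 and KIF26A is highest with mipafox at 0.51.

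The 5 mitotic kinesins kept nearly the same signal under paraoxon, with log2 fold changes between -0.10 and 0.10 and a median of -0.07 at the brightest probe of each gene. KIF11, the motor that pushes the spindle poles apart, measured 1.60, 1.63 and 1.60 in control (arrays A, B and C, in this order throughout), 1.44, 1.35 and 1.84 with paraoxon and 1.48, 1.83 and 1.86 with mipafox. The paraoxon arrays lay on both sides of the controls (log2 fold change -0.07 ± 0.17, SE), and so did the mipafox arrays (0.12 ± 0.17). KIF20A, which brings the chromosomal passenger complex to the central spindle, measured 2.32, 2.31 and 2.45 in control, 2.23, 2.23 and 2.31 with paraoxon and 1.93, 2.36 and 2.88 with mipafox. Paraoxon was 0.10 lower on the log2 scale (-0.10 ± 0.22, limma adjusted p = 0.898), and the mipafox arrays spanned both the lowest and the highest KIF20A value of the series.

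KIF23, the motor subunit of centralspindlin, measured 2.98, 3.18 and 3.09 in control, 2.88, 2.92 and 3.23 with paraoxon and 3.09, 3.03 and 3.09 with mipafox at its brightest probe. The 3 treatments overlapped, with log2 fold changes of -0.07 ± 0.14 and -0.01 ± 0.14. KIF2C measured 4.33, 4.47 and 4.46 in control, 4.61, 4.45 and 4.49 with paraoxon and 4.89, 4.57 and 4.16 with mipafox, and again no treatment was separate from control (0.10 ± 0.19 and 0.12 ± 0.19). KIF4A, a chromosome-bound motor that organizes the central spindle with PRC1, measured 1.78, 1.38 and 1.42 in control, 1.51, 1.45 and 1.63 with paraoxon and 1.71, 1.74 and 1.92 with mipafox. Its log2 fold changes were 0.01 ± 0.15 and 0.26 ± 0.15 (limma adjusted p = 0.995 and 0.821). For mipafox the median of the 5 genes was 0.12.

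The axonal transport kinesins had a higher median under paraoxon, 0.33 on the log2 scale, with values from -0.37 to 0.40, and 3 of the 5 genes, KIF1B, KIF5A and KIF5C, were higher at an unadjusted p under 0.05, a limit that 7.31% of all tested probes met in this direction. None of the 3 passed the adjusted threshold. The median was 0.15 with normexp background correction and 0.14 with the authors' processed values. It was 0.06 with the mean of all tested probes of a gene, and 0.51 with slide as a block. KIF5C, a kinesin-1 heavy chain enriched in neurons, measured 1.51, 1.62 and 1.62 in control, 1.80, 2.01 and 1.93 with paraoxon and 1.80, 1.69 and 1.56 with mipafox. All 3 paraoxon arrays lay above all 3 controls, while mipafox C lay among them. The log2 fold change was 0.33 ± 0.13 for paraoxon (limma adjusted p = 0.317) and 0.10 ± 0.13 for mipafox (adjusted p = 0.949).

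KIF1B, which carries mitochondria and synaptic vesicle precursors, measured 1.03, 1.17 and 1.19 in control, 1.39, 1.54 and 1.46 with paraoxon and 1.18, 1.39 and 1.43 with mipafox at its brightest probe. Paraoxon arrays were all above the controls (0.33 ± 0.13, limma adjusted p = 0.316), and mipafox A lay within the controls (0.20 ± 0.13, adjusted p = 0.846). KIF5A, the kinesin-1 heavy chain whose mutation causes hereditary spastic paraplegia, measured -3.21, -3.46 and -3.54 in control, -3.01, -2.99 and -3 with paraoxon and -2.84, -3.06 and -3.32 with mipafox at its brightest probe. The paraoxon arrays agreed within 0.01 (SD) of each other and lay above the controls (0.40 ± 0.16, limma adjusted p = 0.315), while a second KIF5A probe went the other way, as given further on.

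KIF3A, which pairs with KIF3B in a heterotrimeric motor of axons and cilia, was the exception among the 5. It measured 0.21, 0.41 and 0.28 in control, -0.10, -0.25 and 0.15 with paraoxon and 0.51, -0.05 and -0.70 with mipafox. All paraoxon arrays lay below the controls (-0.37 ± 0.27, limma adjusted p = 0.629), and the mipafox arrays reached from above to far below them (-0.38 ± 0.27). KIF1A, the motor of synaptic vesicle precursors, measured 0.95, 0.52 and 0.51 in control, 0.73, 0.63 and 0.81 with paraoxon and 0.74, 0.87 and 0.63 with mipafox, and the treatments overlapped (0.06 ± 0.16 and 0.09 ± 0.16).

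**Figure D2:**
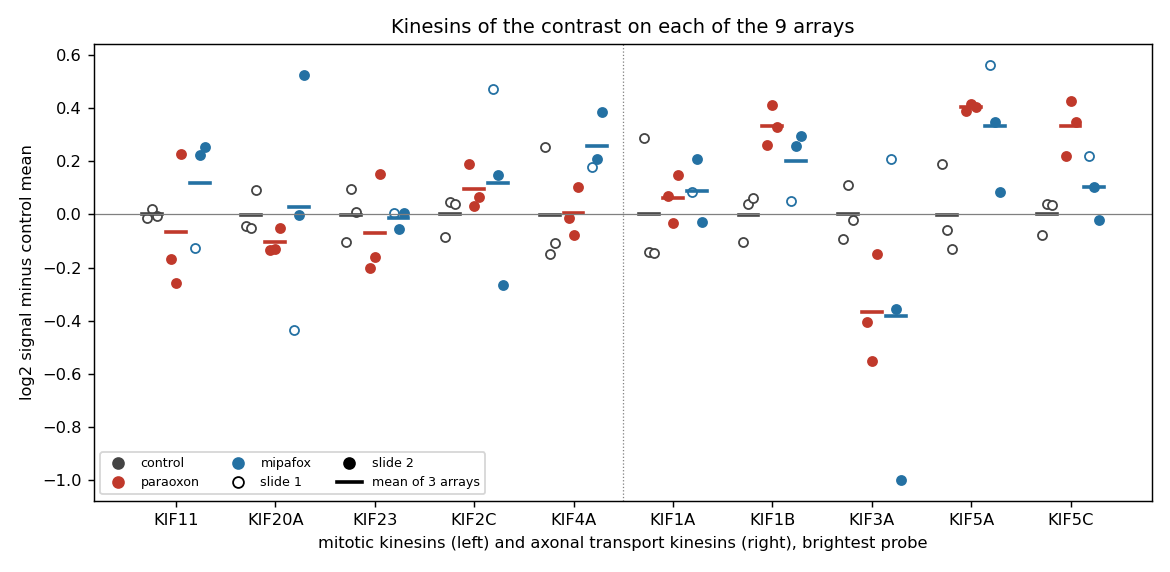
Log2 signal minus the control mean (vertical axis) of the 5 mitotic and 5 axonal transport kinesins on each array, brightest probe per gene, with open points for slide 1, filled points for slide 2 and bars for the mean of 3 arrays. With paraoxon, KIF1B, KIF5A and KIF5C lie above all control arrays and KIF3A lies below, while the mitotic kinesins overlap the controls, and mipafox A and mipafox C stand on opposite sides of the control mean for KIF20A, KIF2C and KIF3A.

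Set against each other array by array, the mitotic kinesins had a lower median deviation from control than the axonal ones on every paraoxon array. The median deviation of the 5 mitotic genes from their control means, minus that of the 5 axonal genes, was 0.03, -0.02 and 0.03 on the control arrays. It was -0.35, -0.54 and -0.22 on the paraoxon arrays and -0.20, -0.06 and 0.27 on the mipafox arrays. The paraoxon values were all below the controls, whereas the mipafox values lay on both sides. The pooled SD between arrays of a treatment was 0.17. Deviations are taken from the control means, so control values lie near 0 by construction, and lying outside them is not a test. The members of a list are not replicates of a treatment, so no test was made of this difference. Most of it came from the axonal side, where the median deviation was 0.22, 0.41 and 0.33 on the paraoxon arrays, against -0.13, -0.13 and 0.11 for the mitotic genes.

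**Figure D3:**
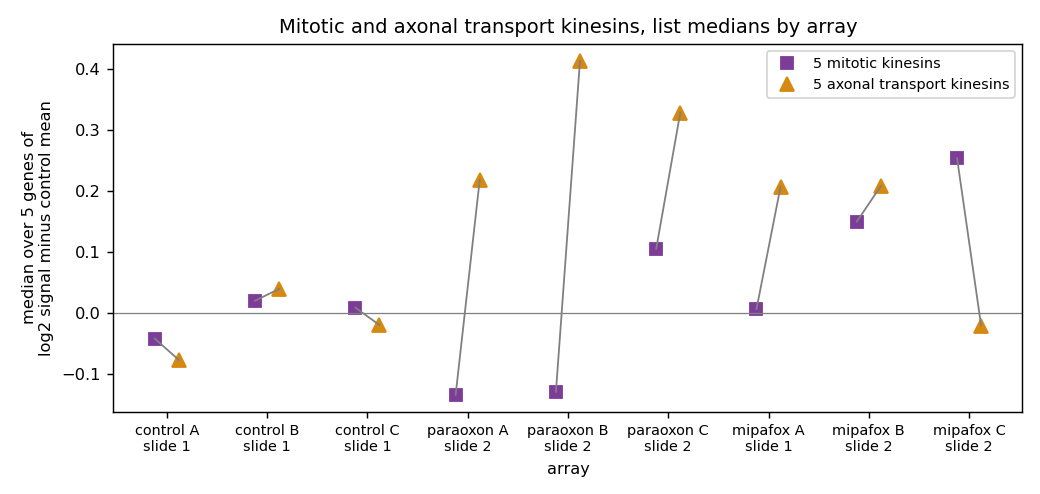
Median over 5 genes of the log2 signal minus the control mean (vertical axis) on each of the 9 arrays, with squares for the mitotic and triangles for the axonal transport kinesins and the slide under each array name. The 2 symbols are close together on the control arrays, whose own mean is subtracted. The axonal median is above the mitotic one on all 3 paraoxon arrays, and on mipafox C it is below.

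The difference depended on the probe chosen, on the slide and on the background correction. With the mean of all tested probes of a gene in place of the brightest, the axonal median under paraoxon was 0.06 and the mitotic minus axonal difference was -0.13, against -0.40 at the brightest probe. With normexp the difference was -0.27, and with the authors' processed values it was -0.26. With slide as a block the axonal median was 0.51 and the difference -0.63, KIF1B went to 0.11 ± 0.21, KIF5C to 0.51 ± 0.22 and KIF5A to 0.75 ± 0.25, and KIF3A turned from -0.37 to 0.52 ± 0.35. That fit takes the slide difference from mipafox A on slide 1 and mipafox B and C on slide 2, with 1 array on one side, and the sign of 15 of the 53 kinesin probes for paraoxon changed under it. It moved the mitotic genes too, KIF11 to -0.43 ± 0.27, KIF20A to -0.80 ± 0.28 and KIF2C to 0.62 ± 0.26, and the median of all tested probes from 0.01 to 0.10. The smallest limma adjusted p of a kinesin under it was 0.613. Within slide 1, KIF3A was 0.21 higher on mipafox A than the mean of the 3 controls, and within slide 2 paraoxon was 0.31 above the mean of mipafox B and C. KIF5C was 0.22 higher on mipafox A than in control on slide 1, and 0.29 higher with paraoxon than with mipafox on slide 2. Apart from this estimate through mipafox, slide and paraoxon cannot be told apart.

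Among the other cell division kinesins, 7 of the 9 genes tested were above 0 with paraoxon (median 0.07) and 6 with mipafox (median 0.10). KIF22, a chromosome-arm motor, measured 2.51, 2.38 and 2.34 in control, 2.31, 2.15 and 1.64 with paraoxon and 2.59, 2.15 and 2.20 with mipafox. The paraoxon arrays were all below the controls, with paraoxon C lowest (-0.38 ± 0.20, limma adjusted p = 0.461), and with slide as a block the value was 0.03. KIF18A, which dampens chromosome movements at the metaphase plate, was the only gene of this group whose brightest probe was above control on all paraoxon arrays. It measured -0.57, -0.24 and -0.18 in control and -0.14, -0.04 and -0.0037 with paraoxon (0.27 ± 0.15, limma adjusted p = 0.499). KIF14, KIF15, KIF2A and the minus-end motor KIFC1 had paraoxon values between -0.03 and 0.10.

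KIF20B, a motor of late cytokinesis, had an unadjusted p under 0.05 with mipafox at its second probe, where control measured -0.89, -0.35 and -0.40, paraoxon -0.70, -0.89 and -0.99 and mipafox -1.31, -1.05 and -0.91. Each mipafox array was lower than each control array, by a narrow margin for mipafox C against control A (-0.54 ± 0.19, limma adjusted p = 0.578). At the brightest KIF20B probe the mipafox arrays measured -1.42, -0.60 and -0.13, against -0.96, -0.87 and -0.63 in control, and surrounded the controls (0.10 ± 0.29).

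The other transport kinesins, 15 genes, had medians of 0.02 with paraoxon and -0.01 with mipafox. KIF26A, an atypical kinesin without ATPase activity, was higher than control on every array of both compounds. It measured -1.63, -1.76 and -1.64 in control, -1.40, -1.37 and -1.16 with paraoxon and -1.36, -1.11 and -1.03 with mipafox. This came to 0.37 ± 0.14 for paraoxon (limma adjusted p = 0.302) and 0.51 ± 0.14 for mipafox (adjusted p = 0.451). With slide as a block these were 0.08 and 0.32, and mipafox A on slide 1 was 0.32 above the control mean of the same slide. KIF19, a depolymerase of cilia listed with the cilium kinesins, had the same pattern with smaller values, 0.22 ± 0.13 and 0.25 ± 0.13. KIFC3, a minus-end motor of the Golgi and of adherens junctions, was lower on every array of both compounds, though mipafox A and control C were equal as printed (-3.55). Control arrays measured -3.24, -3.31 and -3.55, paraoxon arrays -3.72, -3.86 and -4.62 and mipafox arrays -3.55, -3.83 and -4.14. The log2 fold changes of KIFC3 were -0.70 ± 0.25 (limma adjusted p = 0.271) and -0.47 ± 0.25 (adjusted p = 0.8), and slide as a block took them to -0.27 and -0.19.

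KIF3C, a kinesin-2 subunit enriched in neurons, measured 0.87, 0.92 and 0.95 in control, 1.33, 1.27 and 1.32 with paraoxon and 1.47, 1.36 and 0.90 with mipafox at its brightest probe. All paraoxon arrays were above the controls (0.39 ± 0.16, limma adjusted p = 0.335), and mipafox C was among them (0.33 ± 0.16). KIF5B, the kinesin-1 heavy chain of most tissues, measured 1.98, 2.28 and 2.40 in control, 2.36, 2.69 and 2.29 with paraoxon and 2.38, 2.15 and 2.08 with mipafox, with overlapping arrays (0.23 ± 0.17 and -0.02 ± 0.17). The kinesin-2 subunit KIF3B, the partner of KIF3A, had values of -0.05 ± 0.19 and 0.04 ± 0.19. Among the 4 tested kinesins listed under cilium and flagellum, KIF7, KIF19, KIF25 and KIF27, the medians were 0.18 with paraoxon and 0.06 with mipafox, and KIF7, a regulator of Hedgehog signalling, was at -2.74 on paraoxon C against -1.66 and -1.33 on paraoxon A and B. KIF25, whose place in that list was not checked, had log2 fold changes of 0.22 with paraoxon and 0.43 with mipafox.

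Probes of the same kinesin gene often disagreed. Several probes were tested for 12 genes, of which 10 had probes of opposite sign with paraoxon and 10 with mipafox. The 38 brightest probes had 24 values above 0 and 14 below with paraoxon, whereas the 15 further probes had 4 above and 11 below, with a median of -0.28. This was not particular to kinesins. Over all genes with several tested probes, 44.5% of the 4518 brightest probes and 63.6% of the 5374 others were lower with paraoxon, and 46.4% and 65.0% were lower with mipafox.

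KIF5A gave the widest disagreement, and both of its probes are shown because they decide what is said of the gene. Their first 30 bases were printed from the array files, with hg19 positions as the files give them.
KIF5A, brightest probe, chr12:57980041-57980100, plus strand: catggttcttttaaaaacacataaggaaat
KIF5A, second probe, chr12:57978069-57978128, plus strand: cccaacccctgttgttggactgtactatgt

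The second probe lies 1972 bases to the 5′ side of the brightest one on the gene's strand, and the longest run of bases they share is 4. The files assign it to the reference transcript of KIF5A and the brightest one to an Ensembl transcript of the same gene. At the second probe control measured -6.21, -6.74 and -6.60, paraoxon -7.80, -6.79 and -7.72 and mipafox -7.25, -7.44 and -7.19, and every treated array was below every control array. On the paraoxon arrays it was not well above background on any of the 3, so the size of the measured difference is uncertain (-0.92 ± 0.27, limma adjusted p = 0.176). With mipafox the difference was -0.78 ± 0.27 (adjusted p = 0.578). No direction can therefore be given for KIF5A as a gene.

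The probes of KIF3C, KIF4A and KIF5B split in the same way. The second probe of KIF3C measured -3.45, -3.91 and -3.85 in control, -4.01, -3.99 and -4.82 with paraoxon and -4.04, -4.26 and -3.86 with mipafox. It was below control on all paraoxon arrays (-0.54 ± 0.25, limma adjusted p = 0.392), where the brightest probe was above. The second probe of KIF4A measured -0.17, -0.43 and -0.35 in control, -0.77, -0.75 and -1.46 with paraoxon and -0.51, -0.75 and -0.64 with mipafox. Treated arrays of both compounds lay below all controls (-0.68 ± 0.20, adjusted p = 0.191, and -0.32 ± 0.20, adjusted p = 0.835, limma), while its brightest probe overlapped them. For KIF5B the second probe gave -0.28 ± 0.14 with paraoxon and the brightest 0.23 ± 0.17. KIF18B, a motor at the plus ends of astral microtubules, gave -0.41 ± 0.15 at its second probe and 0.28 ± 0.22 at the brightest. That second probe was well above background on 3 control arrays but on 2 paraoxon and 2 mipafox arrays. It passed the filter only through control, where it was highest, so its lower values with either compound are no evidence of a change.

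KIF1B was measured by 4 probes, 3 of them assigned by the files to another reference transcript than that of the brightest and 72926 to 76703 bases to the 5′ side of the brightest. With paraoxon 2 of these 3 gave 0.33 ± 0.16 and 0.21 ± 0.15, on the same side of 0 as the brightest probe, and the remaining one gave -0.25 ± 0.17. KIF22 shows the opposite case, 2 probes that share sequence and agree. The shared run of 50 bases is in capitals as far as it falls within the first 30 bases, and the 5′ probe, 5291 bases to the 5′ side, shares no long run with them.
KIF22, brightest probe, chr16:29815336-29816143, plus strand: TCCCCAAATGCCGAGATCCACATCCTGAAG
KIF22, overlapping probe, chr16:29815326-29815385, plus strand: gcaggcagcaTCCCCAAATGCCGAGATCCA
KIF22, 5′ probe, chr16:29810045-29810104, plus strand: tacctagagatctaccaggagaaggtgagg

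The overlapping pair gave -0.38 ± 0.20 and -0.39 ± 0.21 with paraoxon, and because the sequences overlap they count as 1 measurement. The 5′ KIF22 probe measured -2.75, -3.10 and -2.86 in control and -2.62, -2.57 and -2.66 with paraoxon, all above the controls (0.29 ± 0.15, limma adjusted p = 0.455).

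Values against control differed with the position of a probe along its gene. Of the 15 further kinesin probes, 14 lay to the 5′ side of the brightest probe of their gene, of which 10 were lower and 4 higher with paraoxon, and 8 lower and 6 higher with mipafox. The 14 include the overlapping KIF22 probe, lower with both compounds, which is no separate measurement. They also include the KIF1B probes assigned to another reference transcript. Over all genes, 73.4% of 3717 such 5′ probes were lower with paraoxon (median -0.22) and 72.1% with mipafox (median -0.15), while of 1611 probes on the 3′ side 41.5% and 48.7% were lower. Array by array, the median deviation of the 5′ probes minus that of the brightest probe of the gene was 0.07, -0.04 and -0.04 on the control arrays. It was -0.13, -0.14 and -0.39 on the paraoxon arrays and -0.19, -0.21 and -0.15 on the mipafox arrays. All 6 treated arrays were below all 3 controls, mipafox A on the slide of the controls included, and paraoxon C was lowest. These deviations too are taken from the control means, so control values lie near 0 by construction and lying below them is not a test. The methods of the study state that RNA integrity was checked and the samples were processed together, while paraoxon and control arrays shared no slide. Neither the cause of this shift nor its part in the kinesin values was tested.

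The spread between arrays of a treatment set the limit of what could be resolved. The median SD of the kinesin probes was 0.13 in control, 0.19 with paraoxon and 0.21 with mipafox, and it was 0.18, 0.21 and 0.26 over all tested probes. The KIF20A probe is printed on 10 spots, which separates spot error from the difference between arrays. On mipafox A, 8 usable spots gave 1.93 with an SD of 0.02, and on mipafox C 9 spots gave 2.88 with an SD of 0.05, so the arrays of this treatment differed by far more than spots of one array. KIF21A, a motor that limits microtubule growth in axons and also on 10 spots, measured -3.38, -2.75 and -2.46 on mipafox A, B and C with spot SDs between 0.09 and 0.11, while its paraoxon values were -2.82, -2.77 and -2.65 (0.05 ± 0.22 against control). The largest SD was that of KIF12, a kinesin expressed in kidney, at 1.66 with paraoxon, where paraoxon C measured -7.57 and paraoxon A and B -4.80 and -4.61. The KIF12 probe was well above background on only 2 of the 3 paraoxon arrays, so the size of this SD is uncertain.

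Genes that work with the kinesins gave 0 calls as well. Of 13 transport partners, 9 were above 0 with paraoxon and 10 with mipafox, with medians of 0.06 and 0.04. The lowest was KLC4, at -0.81 ± 0.37 and -0.63 ± 0.37, with a probe well above background on 6 arrays. With paraoxon, 1 of the 18 tested partner probes was lower at an unadjusted p under 0.05, against 6.02% of all tested probes. It was not the brightest of its gene, and its limma adjusted p of 0.092 was the smallest of the list. KIFAP3, the non-motor subunit of the KIF3A motor, measured 1.42, 1.68 and 1.70 in control, 1.79, 1.96 and 1.95 with paraoxon and 1.72, 1.82 and 2.04 with mipafox. Every treated array was above every control (0.30 ± 0.15, adjusted p = 0.42, and 0.26 ± 0.15, adjusted p = 0.818, limma). With slide as a block KIFAP3 was at 0.09 and 0.12. Of 12 division partners, 5 were above 0 with paraoxon and 4 with mipafox, with medians of -0.01 and -0.08. RACGAP1, the partner of KIF23, had values of 0.25 ± 0.14 and 0.03 ± 0.14, and PRC1, the partner of KIF4A, 0.10 ± 0.13 and 0.20 ± 0.13. The 19 genes of dynein and dynactin, the motor complex that moves in the opposite direction, had medians of -0.04 and -0.07, with the light chain DYNLT3 highest at 0.95 ± 0.38 with paraoxon (limma adjusted p = 0.322).

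The 9 measured proliferation genes, which move with the fraction of dividing cells as the mitotic kinesins do, had medians of -0.03 and 0.03. MKI67, the gene of the Ki-67 antigen, was the only one of them at an unadjusted p under 0.05 at its brightest probe. It measured 0.06, -0.18 and -0.35 in control, -0.50, -0.82 and -0.66 with paraoxon and -0.62, -0.58 and -0.72 with mipafox. All 6 treated arrays were below the controls (-0.51 ± 0.15, adjusted p = 0.192, and -0.49 ± 0.15, adjusted p = 0.523, limma). The other 8 genes had paraoxon values from -0.31 for CDC20 to 0.19 for CDK1, and 4 of them were lower. With slide as a block these ran from -1.07 for CDC20 to 0.17 for CDK1. Of all 13 tested probes of the proliferation genes, 3 were lower at an unadjusted p under 0.05 with paraoxon and 2 with mipafox. Of all tested probes on the array 6.02% and 4.0% were so. The smallest limma adjusted p of the 13 was 0.129 with paraoxon and 0.377 with mipafox. In RNA of whole cultures, fewer cells of a type and less RNA per cell cannot be told apart.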

How the data were processed

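The authors deposited, for each array, Agilent Feature Extraction 10.5.1.1 output with linear spot intensity, and 1 table of normalized log2 values, used here as an alternative. The methods name the Agi4x44PreProcess package and limma. The background correction behind the table is not given in the sources used here.

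Here log2 of the processed signal was taken minus the 75th percentile of the array. Control and outlier spots were dropped before a probe's spots were averaged. Probes well above background (in at least 0.5 of their spots) on each array of 1 or more treatments, 29134 in all, were fitted by treatment (limma 3.58.1, R 4.3.3; Benjamini-Hochberg). A gene was represented by its brightest tested probe. On simulated arrays for paraoxon against control, with 29134 probes and 200 changed by 2 (log2), 180 of the 200 and 5 unchanged probes were called. That change is larger than any kinesin value measured here, and no slide difference was simulated. The share recovered therefore does not apply to changes of the size seen. Precision is limited by the number of arrays. Figures were drawn with matplotlib 3.10.9.

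The named genes are the 10 kinesins of the contrast between mitosis and axonal transport, those with a probe at an unadjusted p under 0.05, and those whose probes differ in sign by over 0.5 with paraoxon. Members, lists and tests were chosen with earlier results of these data known, and other genes were named after their values were seen. Alternatives covered the scaling, background correction, the authors' values, the filter, blocks for slide and for replicate letter, the arrays fitted, array weights, the variance model, outlier spots, the call rule, the mean over probes and each array left out. Probe positions are those of the files (hg19), with no exon or UTR annotation of that build used here. Promoters are from RefSeq (GRCh38.p14), and the printed bases were copied by program.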

Additional observations from a re-analysis of the deposited data

How the results depend on the processing

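No kinesin probe was called under any alternative that kept the fold change limit. With array weights, which were 4.37 for control B and under 0.40 for control A, paraoxon C, mipafox A and mipafox C, 8 kinesin probes with paraoxon (15.1%, against 13.9% of all tested) and 11 with mipafox (20.8%, against 19.8%) had an adjusted p under 0.05 in limma, all within the fold change limit. Over the whole array, against 0 calls, paraoxon gave 1 call with slide as a block, 276 with the 2 treatments alone, 671 with array weights and 638 at an unadjusted p under 0.05 with a log2 fold change beyond 1. Without 1 array it gave 0 to 276 calls, 276 without mipafox A, 93 without mipafox B and 1 without mipafox C. Mipafox gave 6 calls with slide as a block, 800 with array weights, 246 at the unadjusted limit and 0 to 76 without 1 array, the 76 without mipafox A. The axonal median with paraoxon was 0.33, 0.15 with normexp, 0.14 with the authors' values, 0.51 with slide as a block, 0.061 with the mean over probes and 0.28 to 0.37 without 1 array. The mitotic minus axonal difference was -0.40, -0.63 with slide as a block, -0.13 with the mean over probes and -0.45 to -0.25 without 1 array, and the mitotic median was -0.13 to 0.03 without 1 array. With mipafox, slide as a block gave 0.0069 for the mitotic median, 0.21 for the axonal median and -0.20 for their difference, and without 1 array these were 0.048 to 0.24 (0.24 without mipafox A), 0.09 to 0.15 and -0.11 to 0.15. Of 1134 single-probe values under an alternative, 13 changed sign from a value larger than its SE. Slide as a block did so with paraoxon for a KIF1B probe (-0.22), both overlapping KIF22 probes (0.031 and 0.058) and KIF3A (0.52), and with mipafox for KIF3A (0.21). The mean over probes did so with paraoxon for KIF18B (-0.065), KIF3C (-0.071), KIF5A (-0.26) and KIF5B (-0.028), and with mipafox for KIF4A (-0.030) and KIF5A (-0.22). Normexp did so with mipafox for second probes of KIF18B (0.027) and KIF5A (0.035). The cause was not tested. The replicate letters showed no steady pairing of the arrays. For A, B and C the correlation of deviations was 0.17, 0.12 and -0.45 between control and paraoxon. Between control and mipafox it was 0.26, -0.07 and 0.57, and between paraoxon and mipafox 0.24, -0.60 and -0.43. For arrays of different letters it reached 0.66. With a replicate block 0 probes were called in either comparison and the mitotic minus axonal difference with paraoxon remained -0.40.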
